A study of Mus musculus with 4 samples.

Results

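The neuregulin and ErbB family was followed through the cells of fetal mouse leg muscle. The 9 genes examined, of 32285 genes in the count tables, were the neuregulin genes *Nrg1*, *Nrg2* and *Nrg3*, the EGF receptor ligand genes *Hbegf* and *Btc*, and the receptor genes *Egfr*, *Erbb2*, *Erbb3* and *Erbb4*. They were taken by symbol as a family, without a threshold on any value. Leg muscles of fetuses near the end of gestation, per the study's methods, were digested with trypsin and DNase I, strained, and profiled by droplet single-cell RNA sequencing of 3′ transcript ends. There were 2 libraries from wild-type (WT) fetuses and 2 from knockout (KO) littermates that lacked *SYISL*, which gives a long non-coding RNA from within an intron of *Synpo2*. Both genotypes came from heterozygous parents and carried no other stated allele or treatment. Per the study's methods the muscles of each fetus were taken separately, but how many fetuses entered each library was not stated, and the tests measure the spread between libraries.

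Neuregulins and the other EGF-like growth factors are mostly made as membrane proteins and released by proteases. The products of *Nrg1* and *Nrg2* bind ErbB3 and ErbB4, whereas HB-EGF (*Hbegf*) and betacellulin (*Btc*) bind the EGF receptor (*Egfr*) and ErbB4. ErbB2 has no known ligand and signals as the partner of the other receptors, and ErbB3 has little kinase activity and depends on such a partner. In nerve, axonal neuregulin 1 acting on ErbB2 and ErbB3 governs Schwann cell survival and myelination, and in muscle the pathway acts at spindles and synapses. Motor neuron cell bodies lie outside the limb, and only 1 of 6 neuron markers (*Stmn2*, in endothelial-like cells) reached 20 CPM in any class, so the neuronal source of neuregulin was not sampled.

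After filtering, 36969 of 41741 cells were kept, 8177 to 10461 per library, with median UMIs per cell (unique molecular identifiers, 1 per captured transcript) between 9118 and 11427. A level is in CPM, the UMIs of a gene per 1000000 UMIs of its class in that library, and each mean is over the 4 libraries. Cell classes were rebuilt by clustering with the 9 genes and the pathway genes left out of the clustering, and are called "-like". Of their markers, 9 of 9 in glial-like cells, 9 of 9 in myogenic-like cells and 7 of 9 in FAP-like cells (fibro-adipogenic progenitors, the interstitial fibroblasts of muscle) were at least 2-fold above all other cells; *Col1a1* and *Col1a2* were not. Myotubes were nearly absent, with 79 cells. KO replicate 2 had *Xist* UMIs in 98.2% of cells and Y-linked UMIs in 1.00%, whereas the other 3 libraries had Y-linked UMIs in 85.8% to 89.9% of cells, so 1 KO library differed in sex from all WT libraries and the KO libraries came from different fetuses. Libraries shared 124 cell barcodes among the kept cells.

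*Nrg1* (chr8:31814551-32884029, minus strand, mm10), the neuregulin with the broadest known roles in nerve, heart and muscle, was highest in a group of 8900 FAP-like cells with *Hpse2* and *Smoc2* among its leading genes. Its level there was 432 and 529 CPM in WT and 454 and 386 CPM in KO, a mean of 450 ± 59.7 CPM (SD, n = 4). Cycling FAP-like cells followed at 239 ± 22.1 CPM, and no library of either group overlapped the other. *Nrg1* was itself among the leading genes of the *Hpse2* *Smoc2* cells although it had no part in the clustering.

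A different group of FAP-like cells, 5596 adventitial-type cells that carry *Pi16* and *Ly6a*, had little *Nrg1*. The level was 39.3 and 46.9 CPM in WT and 51.9 and 47.1 CPM in KO. Within each library the *Hpse2* *Smoc2* cells were 8.20-fold to 11.3-fold higher, and edgeR put the log2 difference at 3.27 ± 0.07 (SE; adjusted p = 2.5e-10). This contrast was chosen after the data were seen. It called 48.3% of 16585 genes, 23.4% higher and 24.8% lower in the *Hpse2* *Smoc2* cells, and among the members 2 were higher (*Nrg1* and *Egfr*), 4 lower (*Hbegf*, *Btc*, *Erbb3* and *Erbb4*) and 3 not called. A call alone thus sets a gene apart from few others.

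Myogenic progenitor-like cells were the other main place of *Nrg1*. The 3684 cells had 133 and 135 CPM in WT and 126 and 147 CPM in KO, a mean of 135 ± 8.84 CPM, and cycling myogenic-like cells had 120 ± 12.2 CPM, which overlapped. In the progenitors *Nrg1* stood at 30.5% of its level in *Hpse2* *Smoc2* cells, whereas the FAP genes *Dcn*, *Lum* and *Pdgfra* stood at 0.501% to 1.21% of theirs. What RNA carried over from other cells adds to a level was not tested. In glial-like cells, by contrast, *Nrg1* stood at 5.62% and the 3 FAP genes at 4.72% to 6.86%, so its 25.2 ± 6.95 CPM in those cells lay within the range of those genes. The same held for macrophage-like cells, at 6.18% against 3.91% to 6.26%, and in endothelial-like and smooth muscle or pericyte-like cells *Nrg1*, at 2.35% and 3.42%, was below the range of the 3 genes. The glial-like class included a sub-cluster of 121 cells led by *Tnmd* and *Dcn*, described under Other observations. Glial-like values without those cells were not computed.

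*Nrg1* UMIs were unevenly spread over cells of 1 kind. In *Hpse2* *Smoc2* cells, 4274 of 8900 cells held an *Nrg1* UMI, with 9.47 UMIs per such cell, up to 157 in a single cell, and 595 cells with 20 or more. The 10% of cells with the most held 66.7% of all *Nrg1* UMIs, and for *Egfr* in the same group this share was 33.5%. After each cell was thinned to 2000 UMIs, 28.3% ± 2.98 (SD, n = 4) of *Hpse2* *Smoc2* cells and 10.8% ± 0.649 of progenitor-like cells kept an *Nrg1* UMI, against 48.5% and 20.5% unthinned. *Nrg1* spans 1069479 bp. The files do not say whether UMIs came from exons or introns, and 3′ counts do not separate the type I, II and III isoforms of *Nrg1*.

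**Figure D1:**
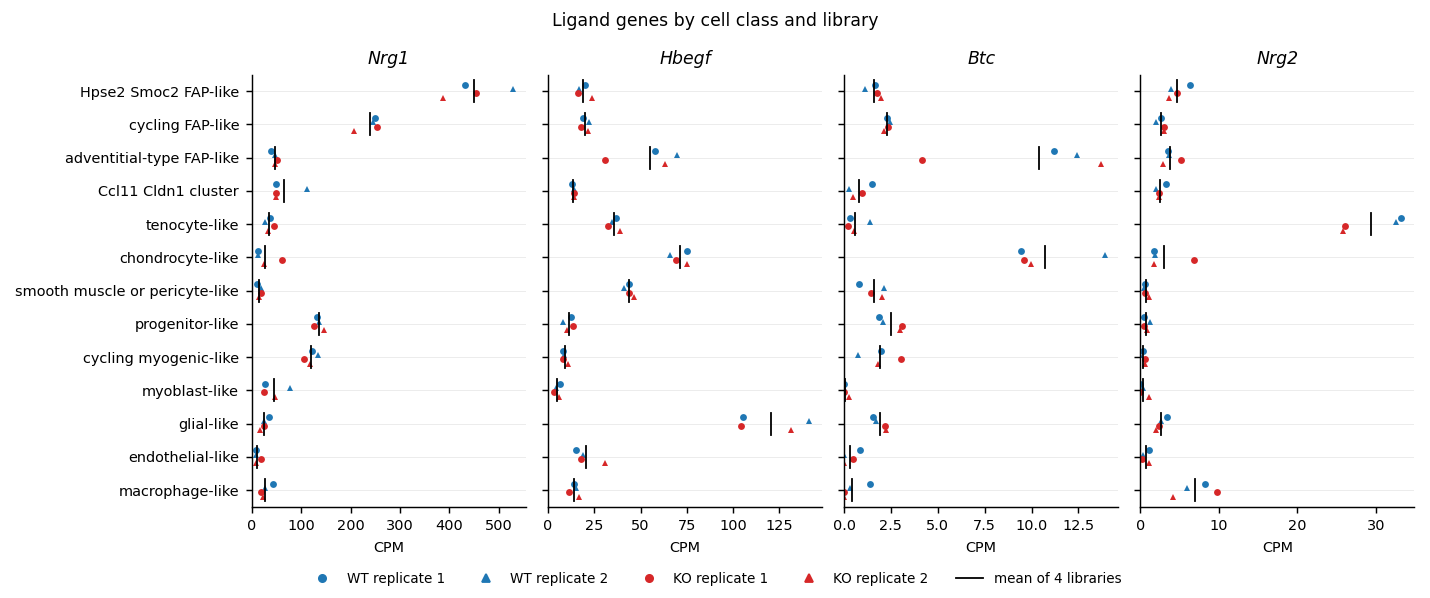
Levels of 4 ligand genes (x axis, CPM, a separate scale for each gene) in 13 classes and groups of cells (y axis). Points are libraries (circles replicate 1, triangles replicate 2; blue WT, red KO) and black bars are means of 4 libraries; *Nrg1* peaks in *Hpse2* *Smoc2* FAP-like cells at 450 CPM, *Hbegf* in glial-like cells at 121 CPM and *Nrg2* in tenocyte-like cells at 29.4 CPM.

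Among the classes and groups before any finer split, *Hbegf*, which encodes heparin-binding EGF-like growth factor, was highest in glial-like cells. It had 106 and 141 CPM in WT and 104 and 131 CPM in KO, a mean of 121 ± 18.6 CPM, and every library was above every library of chondrocyte-like cells (71.3 ± 4.5 CPM). Glial-like cells exceeded FAP-like cells by a log2 difference of 1.93 ± 0.11 (adjusted p = 4.09e-10) and myogenic-like cells by 3.49 ± 0.13 (adjusted p = 3.39e-12). Within the glial-like class the myelinating Schwann-like cells were lowest at 43.6 ± 10.5 CPM, and cycling glial-like cells were at 160 ± 25.6 CPM.

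The EGF receptor ligands were concentrated in 1 portion of the adventitial-type cells. When FAP-like cells were split at resolution 1, a sub-cluster of 1754 cells led by *Sox5*, *Anxa8* and *Rgcc* held *Hbegf* at 160 and 168 CPM in WT and at 154 and 140 CPM in KO. Each of these values was above the glial-like level of the same library. The sub-cluster led by *Tek*, *Ly6a* and *Wnt2*, with 3473 cells, held *Hbegf* at 12.2 ± 1.39 CPM. When groups were named again at resolution 1, adventitial-type cells also numbered 3473. The *Sox5* *Anxa8* *Rgcc* cells thus did not meet the adventitial-type marker rule on their own and carry that name only from the coarser clustering. *Btc*, a ligand of both EGF receptor and ErbB4, followed the same division, at 34.6 and 30.5 CPM in WT and 21.7 and 32.2 CPM in KO against 1.7 ± 0.206 CPM. For both genes every library of the *Sox5* *Anxa8* *Rgcc* sub-cluster was above every library of the other. No test was run between sub-clusters, which were split on the same cells.

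Other ligands of the EGF receptor were at low levels. *Tgfa*, *Areg*, *Ereg* and *Epgn* were all higher in adventitial-type than in *Hpse2* *Smoc2* cells, with log2 differences of *Hpse2* *Smoc2* minus adventitial-type from -5.24 to -2.09 (edgeR, adjusted p at most 0.00452), whereas *Egf* and *Nrg4* did not pass. *Ereg*, *Epgn* and *Nrg4* are named after their values were seen. The 4 genes rested on few UMIs, and *Ereg* had 2 UMIs in all *Hpse2* *Smoc2* cells. In the *Sox5* *Anxa8* *Rgcc* sub-cluster *Tgfa* had 113 UMIs (6.25 ± 2.57 CPM), *Areg* 145 (7.06 ± 5.48 CPM), *Ereg* 43 (2.92 ± 1.6 CPM) and *Epgn* 30 (1.67 ± 0.725 CPM). *Areg* ranged from 0.542 CPM in KO replicate 1 to 11.7 CPM in WT replicate 2, and its highest value in any sub-cluster was 16.4 CPM, in KO replicate 1 of the sub-cluster led by *Tenm2*, *Rgs6* and *Cldn1*. In the sub-cluster led by *Acta2*, *Rgs5* and *Ccl11*, *Areg* reached 7.69 CPM and *Ereg* 3.45 CPM, which overlapped the *Sox5* *Anxa8* *Rgcc* libraries.

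The share of adventitial-type cells that fell into the *Sox5* *Anxa8* *Rgcc* sub-cluster came to 31.6% and 39.1% in the WT and 13.7% and 40.6% in the KO libraries. The low value was KO replicate 1, which also had the lowest *Hbegf* (30.7 CPM against 57.9, 69.4 and 62.9 CPM) and the lowest *Btc* (4.17 CPM against 11.2, 12.4 and 13.7 CPM) over all adventitial-type cells. Inside the sub-cluster, the level of *Hbegf* in KO replicate 1 lay within the range of the other libraries, whereas *Btc*, at 21.7 CPM against 30.5 to 34.6 CPM, was below it.

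**Figure D2:**
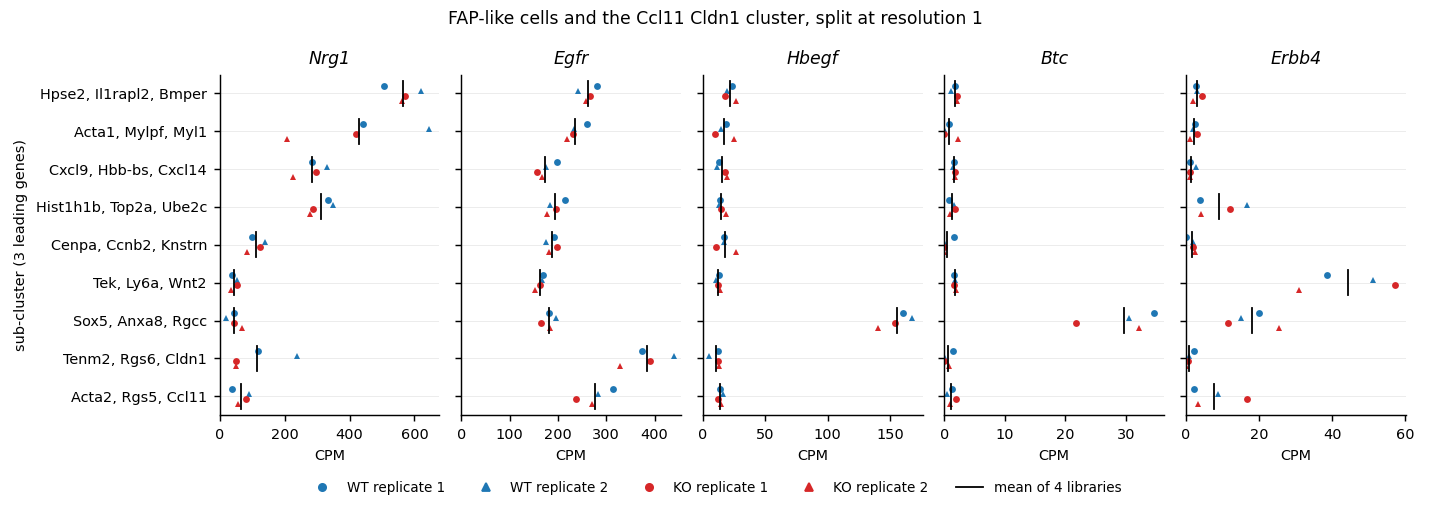
Levels of 5 genes (x axis, CPM, a separate scale for each gene) in the 9 resolution 1 sub-clusters of FAP-like cells and the *Ccl11* *Cldn1* cluster (y axis, named by 3 leading genes). Points are libraries (circles replicate 1, triangles replicate 2; blue WT, red KO) and black bars are means; *Hbegf* and *Btc* stand out in the *Sox5* *Anxa8* *Rgcc* cells, *Erbb4* in the *Tek* *Ly6a* *Wnt2* cells and *Nrg1* in the *Hpse2* cells.

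*Nrg2*, a neuregulin best known from brain, was highest in tenocyte-like cells. Tenocyte-like cells, the tendon fibroblasts, had 33.2 and 32.6 CPM in WT and 26 and 25.8 CPM in KO, 2.68-fold to 6.14-fold above macrophage-like cells, the next class. *Nrg3*, also a brain neuregulin, was near absent, with 412 UMIs in all kept cells, and averaged at most 3.03 CPM in any class. *Btc* outside the adventitial-type cells was seen chiefly in chondrocyte-like cells, at 10.7 ± 2.14 CPM.

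*Erbb3* (chr10:128567523-128589652, minus strand), the neuregulin receptor of the Schwann cell lineage, marked the glial-like cells. It had 323 and 301 CPM in WT and 299 and 292 CPM in KO, 313-fold to 505-fold above FAP-like cells within a library (log2 difference 8.66 ± 0.13, adjusted p = 1.68e-16). Its UMIs were evenly spread, with 1681 of 1829 cells holding at least 1 and no cell more than 15. After thinning, 45.3% ± 2.52 of glial-like cells kept an *Erbb3* UMI, against 91.8% unthinned, and of FAP-like cells 0.152% ± 0.089 kept one, against 0.757% unthinned. The myelinating Schwann-like cells, at 330 ± 17.9 CPM, and the cycling glial-like cells, at 293 ± 22.7 CPM, overlapped.

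*Erbb2* (chr11:98412470-98437716, plus strand), the co-receptor, was also highest in glial-like cells, at 47.1 and 42.8 CPM in WT and 41.4 and 36.3 CPM in KO. All 4 libraries exceeded all libraries of the *Ccl11* *Cldn1* cluster (21.2 ± 1.7 CPM), by 1.84-fold to 2.04-fold, and of FAP-like cells, by 3-fold to 4.22-fold. Among the few myotube-like cells *Erbb2* averaged 38.8 ± 15 CPM on 26 UMIs. *Erbb2* UMIs were found in 33.1% to 41% of the glial-like cells with an *Erbb3* UMI, per library, and in 14.3% to 45.2% of those without, which had fewer UMIs in all (medians of 7010 to 8692 against 10253 to 11876).

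A second place of *Erbb3* was the myoblast-like cells. The 1111 cells had 24.7 and 35.3 CPM in WT and 27.7 and 29.5 CPM in KO, against 2.71 ± 1.23 CPM in progenitor-like cells, 8.77-fold to 20.6-fold higher within a library (log2 difference 3.57 ± 0.17, adjusted p = 1.56e-14). *Erbb3* UMIs were in 240 of 1111 cells, and after thinning 5.43% ± 1.93 of myoblast-like and 0.504% ± 0.257 of progenitor-like cells kept one.

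*Erbb4* (chr1:68032186-69108059, minus strand), which binds neuregulins and has kinase activity of its own, was also higher in myoblast-like than in progenitor-like cells. Progenitor-like cells had 13.1 and 3.33 CPM in WT and 10.4 and 7.25 CPM in KO. Myoblast-like cells had 47.9 and 75.9 CPM in WT and 55.1 and 70.8 CPM in KO (log2 difference 3.02 ± 0.21, adjusted p = 1.05e-11), and cycling myogenic-like cells, at 41 ± 10.3 CPM, were above all progenitor-like libraries and overlapped the myoblast-like ones. *Erbb3* in the cycling cells, at 3.44 ± 0.858 CPM, overlapped the progenitor-like cells instead. Myotube-like cells ranged from 25.8 to 559 CPM on 180 UMIs, too few for an order. Of the myoblast-like cells with an *Erbb3* UMI, 34.4% to 43.5% also held an *Erbb4* UMI, against 12.6% to 16% of those without, although the former had more UMIs in all (medians of 11858 to 14112 against 10414 to 11690).

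*Erbb4* was otherwise high in chondrocyte-like cells, at 99.4 ± 30.7 CPM, and in adventitial-type FAP-like cells, at 32.1 and 35.8 CPM in WT and 51.4 and 27.4 CPM in KO. The *Hpse2* *Smoc2* cells had 2.4 ± 0.743 CPM, 12.5-fold to 19.9-fold lower within a library (log2 difference -3.94 ± 0.09, adjusted p = 4.83e-10). The 2 FAP-like groups were thus opposite for *Nrg1* and *Erbb4*. Within the adventitial-type cells *Erbb4* was higher in the *Tek* *Ly6a* *Wnt2* sub-cluster, at 44.5 ± 11.9 CPM, than in the *Sox5* *Anxa8* *Rgcc* sub-cluster, at 18 ± 6.18 CPM, with no overlap between libraries. *Erbb4* spans 1075874 bp, and like those of *Nrg1* its UMIs came from few cells, with 437 of 5596 adventitial-type cells holding all 2172.

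*Egfr* (chr11:16752203-16918158, plus strand), the receptor for HB-EGF, betacellulin and TGF-alpha, was a gene of the connective tissue cells. It was highest in a cluster of 1498 cells led by *Ccl11* and *Cldn1*, at 346 and 375 CPM in WT and 336 and 312 CPM in KO. That cluster met the FAP marker rule with 8 of 9 markers but was left unnamed. Its 10 leading genes held no FAP marker, but held *Cldn1* and *Lypd2* of the perineurial and *Ccl11* of the endoneurial list (nerve fibroblasts). Tenocyte-like cells followed at 294 ± 33.3 CPM and *Hpse2* *Smoc2* FAP-like cells at 230 ± 17.3 CPM, and each of these overlapped its neighbour in the order. FAP-like cells exceeded glial-like cells 13.1-fold to 15.7-fold within a library (log2 difference of glial-like minus FAP-like -3.87 ± 0.07, adjusted p = 6.21e-16). The glial-like level included the *Tnmd*-led sub-cluster of 121 cells, where *Egfr* was higher than in the class as a whole.

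**Figure D3:**
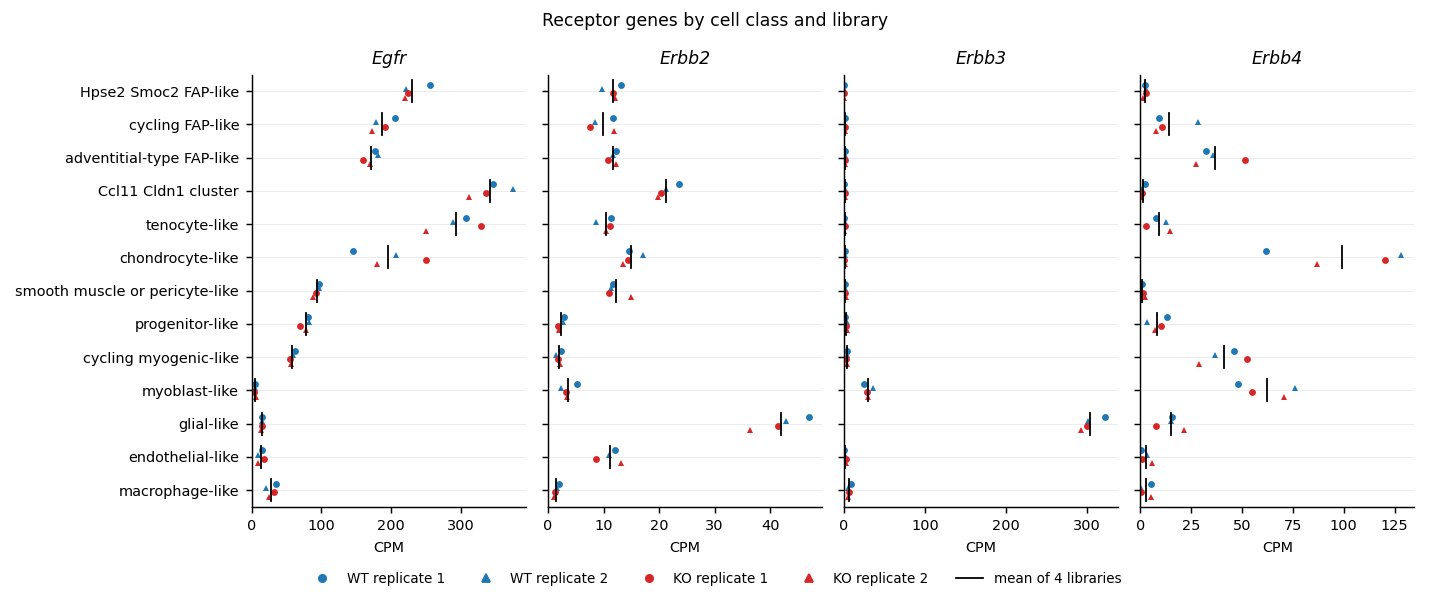
Levels of the 4 receptor genes (x axis, CPM, a separate scale for each gene) in 13 classes and groups of cells (y axis). Points are libraries (circles replicate 1, triangles replicate 2; blue WT, red KO) and black bars are means; *Erbb3* is near 304 CPM in glial-like cells and 29.3 CPM in myoblast-like cells, and *Egfr* is high in all fibroblast groups and low in glial-like cells.

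In myogenic-like cells *Egfr* ran opposite to *Erbb3* and *Erbb4*. Progenitor-like cells had 81 and 82.3 CPM in WT and 69.7 and 77.7 CPM in KO, and myoblast-like cells 4.49 and 4.58 CPM in WT and 3.28 and 6.13 CPM in KO, a difference of 12.7-fold to 21.3-fold within a library. The log2 difference of myoblast-like minus progenitor-like was -3.91 ± 0.13 (adjusted p = 1.22e-17). *Nrg1* was also lower in myoblast-like cells, at 26.5 and 77.5 CPM in WT and 25.3 and 46.5 CPM in KO, with a log2 difference of -1.52 ± 0.15 (adjusted p = 4e-09). Its fold within a library ranged from 1.74 to 4.99, and in the myoblast-like cells the cell with the most *Nrg1* held 22 to 40 UMIs of 71 to 237 per library.

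Of the other members, *Hbegf* was lower in myoblast-like cells (log2 difference -1.01 ± 0.2, adjusted p = 0.000146). *Btc* had 81 UMIs in progenitor-like and 1 UMI in myoblast-like cells, so the fitted log2 difference of -4.56 ± 0.77 (adjusted p = 1.85e-05) is no bound. *Erbb2* was higher by 0.77 ± 0.31 (adjusted p = 0.034), from 2.3 to 3.54 CPM, a difference that did not pass with DESeq2 (adjusted p = 0.207), with expression centred by library (0.104) or without WT replicate 1 (0.131), KO replicate 1 (0.116) or KO replicate 2 (0.109). All 7 members tested in this contrast were called, 3 higher and 4 lower in myoblast-like cells, where 65.8% of 12672 genes were called, 32.1% higher and 33.7% lower.

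**Figure D4:**
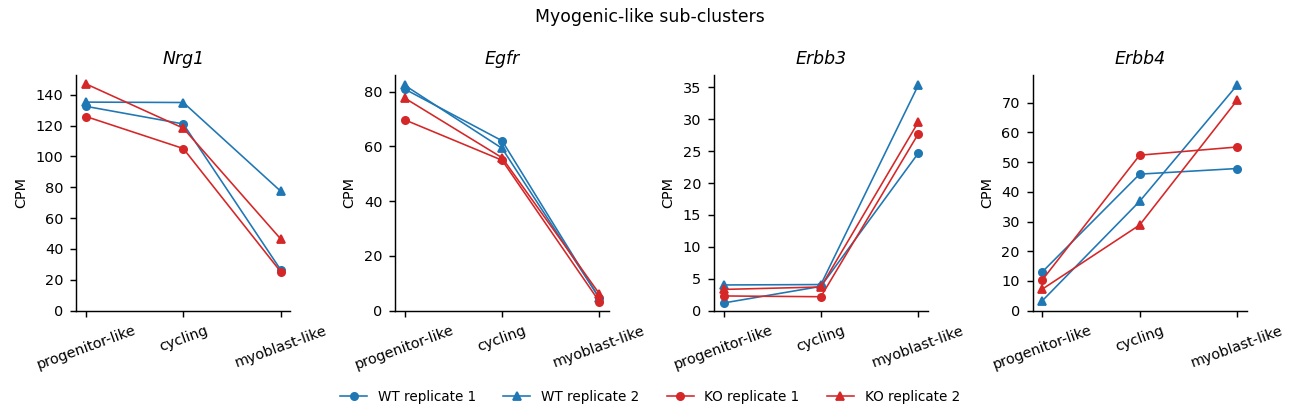
Levels of 4 genes (y axis, CPM) in progenitor-like, cycling and myoblast-like cells (x axis), with a line for each library (circles replicate 1, triangles replicate 2; blue WT, red KO). In each of the 4 libraries *Nrg1* and *Egfr* are lower, and *Erbb3* and *Erbb4* higher, in myoblast-like than in progenitor-like cells; the lines join groups of cells and not times.

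Most members differed between the main classes, as most genes did. Between glial-like and FAP-like cells 7 of 9 members were called, with *Nrg3* and *Erbb4* not passing, where 70.9% of 17342 genes were called, 33.2% higher and 37.6% lower in glial-like cells. *Erbb2*, *Erbb3* and *Hbegf* were higher in glial-like cells, and *Nrg1*, *Nrg2*, *Btc* and *Egfr* higher in FAP-like cells. The call of *Nrg2* (log2 difference -0.65 ± 0.23, adjusted p = 0.019) was lost with DESeq2 (adjusted p = 0.0642), without KO replicate 1 (0.0874) and with the looser cell filter (0.251). Between glial-like and myogenic-like cells 8 of 9 were called, all but *Btc*, 5 of them higher and 3 lower in glial-like cells, where 69.9% of genes were called, 34.0% higher and 35.9% lower. The call of *Nrg3* there was lost without WT replicate 1 (adjusted p = 0.0702). Between FAP-like and myogenic-like cells 9 of 9 were called, with *Erbb3* and *Erbb4* higher in myogenic-like and the other 7 in FAP-like cells, where 79.8% of genes were called, 41.3% higher and 38.5% lower in FAP-like cells.

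The genes whose levels most resembled those of a member over 48 sums (12 classes in 4 libraries, sharing libraries and depth) were described by Pearson's r of log2(CPM + 1). *Erbb3* lay closest to *Rxrg*, *Foxd3* and *Nkain2*, each with r of 0.93, of which *Foxd3* is a neural crest transcription factor. *Egfr* lay closest to *Mrc2* (0.96), a collagen uptake receptor, and then to *Sobp* and *Tbx15* (both 0.93). *Erbb2* lay closest to *Ick* (0.90), *Hbegf* to *Wnk2* (0.83), *Nrg1* to *Amigo1* (0.85), and *Nrg2* and *Erbb4* to *Chst5* and *Zfr* (both 0.80).

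Other genes of the pathway were read from 6 lists with 46 genes. Counts of higher and lower genes in these lists are calls between glial-like and FAP-like cells. In that contrast 70.9% of 17342 genes were called, 33.2% higher and 37.6% lower in glial-like cells, so a call alone sets no list apart. Proteases and cofactors that release ligands were higher in glial-like than in FAP-like cells for 5 of 6 genes, among them *Adam10* (243 ± 10.1 against 83.4 ± 2.76 CPM, log2 difference 1.5 ± 0.04) and *Adam17* (89.6 ± 6.13 against 42.3 ± 1.1 CPM). *Bace1*, the protease that cleaves neuregulin 1 in nerve, was the exception, with a log2 difference of -0.82 (adjusted p = 3.01e-09), and is named after its value was seen. Among 11 tested adaptors and kinases 6 were higher and 3 lower, with *Gab1*, a docking protein, at 267 ± 29.1 against 94.6 ± 3.95 CPM.

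Among 8 inhibitors and turnover genes 3 were higher and 4 lower in glial-like cells. *Errfi1*, a feedback inhibitor of ErbB kinases, was at 28 ± 3.35 CPM in glial-like and 106 ± 4.04 CPM in FAP-like cells. *Lrig1*, which promotes receptor degradation, was at 123 ± 11 CPM in progenitor-like and 24.2 ± 4.26 CPM in myoblast-like cells, a log2 difference of -2.19 ± 0.1 (adjusted p = 8e-15). It thus had the same direction as *Egfr* between these groups.

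Of 6 ETS and Egr genes, which respond to receptor signalling, 4 were higher and 2 lower in glial-like cells. *Egr3* was at 252 ± 26.1 CPM there against 26.8 ± 3.18 CPM in FAP-like and 27.8 ± 4.9 CPM in myogenic-like cells, and *Egr2*, a regulator of myelination, at 105 ± 12.5 against 34.7 ± 1.87 CPM in FAP-like cells. *Egr1* was high everywhere, with 1158 ± 137 CPM in glial-like and 1471 ± 104 CPM in FAP-like cells. All 8 Schwann lineage genes were higher in glial-like cells, which is no finding because markers of that lineage named the class.

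The effect of the *SYISL* knockout on the family was then examined in 11 classes and groups. No member was called in any of 67 tests with edgeR (smallest adjusted p = 0.659), none with DESeq2, and 7 had an unadjusted p under 0.05. Among all genes the share with an unadjusted p under 0.05 ran from 321 of 13333 in chondrocyte-like to 492 of 7137 in mast-like cells. Over all genes few were called either, with 0% of 18127 genes in FAP-like, 0% of 14714 in myogenic-like and 0% of 12842 in glial-like cells, and with 0.0170% in endothelial-like, 0.0981% in mast-like, 0.135% in smooth muscle or pericyte-like cells and 0% in the others. The 3 FAP-like groups and the *Ccl11* *Cldn1* cluster, added after the data were seen, also gave no call among the members, with 0% of all genes. In simulated sums with a known 2-fold change the same test recovered 83% of changed genes in FAP-like, 90% in myogenic-like and 92% in glial-like cells, with 13, 16 and 19 false calls. For a 1.5-fold change it recovered 33%, 69% and 35%, so changes of that size could be missed. These rates are over all changed genes of a class, and recovery of a single gene or of genes with few UMIs was not tested. An estimate near 2-fold was not always called. In FAP-like cells *Nrg3* had a log2 fold change of 1.06 ± 0.29 and did not pass.

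For several members with many UMIs the estimates were close to 0 with small errors. In FAP-like cells the log2 fold change of KO over WT was -0.12 ± 0.11 for *Nrg1*, from 283 and 304 CPM in WT to 293 and 236 CPM in KO, and -0.07 ± 0.08 for *Egfr*, from 224 and 198 to 199 and 193 CPM. *Hbegf* in FAP-like cells had -0.21 ± 0.23, a larger error. In glial-like cells *Erbb3* had -0.07 ± 0.09 and *Erbb2* -0.2 ± 0.12. In myogenic-like cells *Egfr* had -0.11 ± 0.08, *Erbb4* 0.15 ± 0.08 and *Nrg1* -0.06 ± 0.1. The low *Nrg1* value in FAP-like cells was KO replicate 2, without which the log2 fold change was 0.04.

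Among the 8 members tested in glial-like cells, 4 were lower in each KO library than in either WT library, *Nrg1*, *Nrg2*, *Erbb2* and *Erbb3*, and *Btc* was higher in each, where 17.4% and 14.6% of all genes tested did so. In FAP-like cells none of 9 was lower and 1 higher, against 20.8% and 9.23% of genes, and in myogenic-like cells 1 of 8 was lower and 2 higher, against 23.4% and 10.3% of genes. The change of *Nrg1* in glial-like cells was -0.53 ± 0.2 (adjusted p = 0.998). In WT replicates 1 and 2 single cells held 58 and 42 *Nrg1* UMIs of 224 and 135, and without the cell with the most *Nrg1* in each library the levels were 25.5 and 17.7 CPM in WT and 22 and 15.9 CPM in KO, which overlap. With the looser cell filter its log2 fold change was 0.66.

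Among low members, *Nrg3* in FAP-like cells went from 0.921 and 1.39 CPM in WT to 1.9 and 2.82 CPM in KO, a log2 fold change of 1.06 ± 0.29 (adjusted p = 1), resting on 40 to 142 UMIs per library. *Btc* in myogenic-like cells went from 1.58 and 1.21 to 2.52 and 1.98 CPM (0.73 ± 0.3, adjusted p = 0.964). *Nrg2* in tenocyte-like cells went from 33.2 and 32.6 to 26 and 25.8 CPM (-0.31 ± 0.13, adjusted p = 1). In these 3 cases the KO libraries did not overlap the WT libraries, but none passed the test over all genes. Both KO libraries were above both WT libraries for 9.23% of all genes tested in FAP-like and 10.3% in myogenic-like cells. The share for tenocyte-like cells was not computed.

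Whether the knockout effect of a member differed between 2 classes was tested for glial-like against FAP-like and for myogenic-like against FAP-like cells. None of these 18 tests passed with edgeR or DESeq2 and 2 had an unadjusted p under 0.05, *Nrg3* and *Btc* respectively, where 0% of 17342 genes were called in either contrast. An unadjusted p under 0.05 was reached by 730 and 402 of those genes. No pathway gene was called in 411 tests of KO against WT in the same 11 classes, and 10 had an unadjusted p under 0.05. The range of that share over all genes in these classes is given above. In FAP-like cells the median log2 fold change of the 45 pathway genes tested was -0.02, of the 9 members -0.06 and of all genes 0, and in glial-like cells these medians were -0.03 (40 genes), -0.07 (8 members) and 0. In KO and WT alike, the *Hpse2* *Smoc2* cells held *Nrg1*, the *Sox5* *Anxa8* *Rgcc* cells *Hbegf* and *Btc*, and the glial-like cells *Erbb2* and *Erbb3*.

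**Figure D5:**
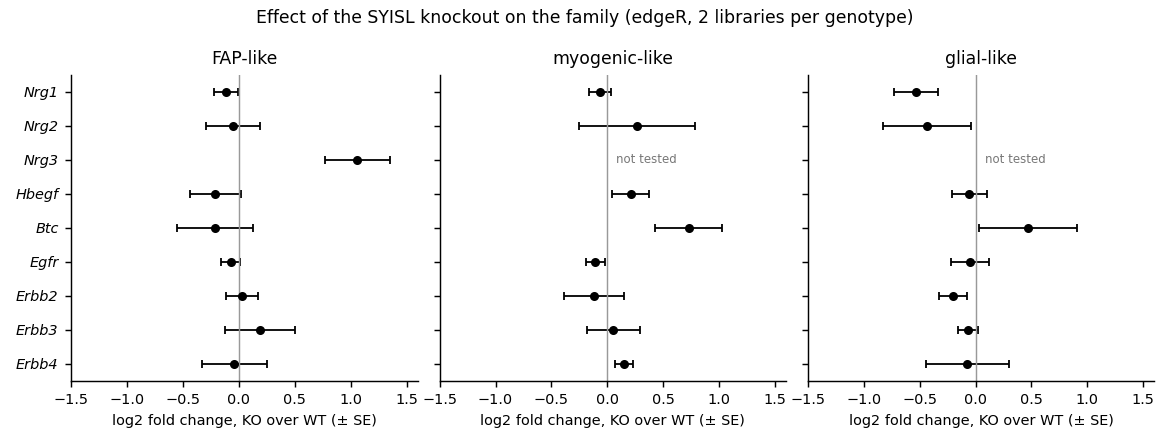
Log2 fold change of KO over WT (x axis) for each member (y axis) in 3 classes, from edgeR on sums of 2 libraries per genotype; points are estimates and bars ± SE. *Erbb3* in glial-like cells and *Egfr* in FAP-like cells lie close to 0 with SE of 0.09 and 0.08. *Nrg3* in FAP-like cells, which is low in UMIs, lies farthest from 0, and *Nrg1* is the farthest in glial-like cells. Neither passed the test.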

How the data were processed

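The authors aligned reads to mm10 (Cell Ranger 7.2.0), and the deposited matrices hold UMI counts as whole numbers without normalisation; whether intronic reads were counted was not stated. The study's limits on cells were applied: from 1000 to 6000 genes, from 1000 to 25000 UMIs, and mitochondrial UMIs below 8%. Cells were clustered (scanpy 1.11.5, 3000 variable genes less the members and pathway genes, 30 components, 20 neighbours, Leiden resolution 0.3) without Harmony, and named from marker lists. Clustering again at resolution 1 split FAP-like cells, and glial-like and myogenic-like cells were each clustered again. Doublets called by Scrublet were kept in the main setting. UMIs were summed per class and library, and tested with edgeR 4.0.16 (quasi-likelihood, TMM, filterByExpr) in R 4.3.3, for classes with at least 50 cells in each library, p-values being adjusted across the tested genes (Benjamini-Hochberg) and called below 0.05. Class contrasts had the library as a block. Standard errors were derived from F. Alternatives were other gene and cell filters, other clusterings, RLE factors, DESeq2 1.42.0, a block for replicate number, and fits without each library in turn. Shares of cells with a UMI were computed after thinning to 2000 UMIs, which left out at most 39 cells of a class.

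The members, gene lists and tests were chosen with earlier results of these data known. Some pathway genes are not reported here. Otherwise the text names every member, pathway genes called in a KO contrast, the 3 pathway genes of each list with the highest mean over glial-like, FAP-like and myogenic-like cells, and the 3 genes most like each member with at least 20 CPM in a class, among genes with at least 10 CPM. Contrasts of FAP-like groups were added after the data were seen. The tests were tested on simulated data. Gene positions are from the GENCODE annotation of GRCm38. Depth limits genes with few UMIs.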

Additional observations from a re-analysis of the deposited data

Results flagged for a closer look

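*Nrg1* was higher in both KO libraries than in both WT libraries in chondrocyte-like cells, and lower in both in 2 other classes. In chondrocyte-like cells it had 12.1 and 11.9 CPM in WT libraries and 60.4 and 24.7 CPM in KO libraries, a log2 ratio of mean levels of 1.82. In glial-like cells the log2 ratio was -0.54 and in macrophage-like cells -0.77, so the differences between classes were 2.36 and 2.60. These differences were not tested. In glial-like cells both KO libraries were below both WT libraries for 17.4% of all genes tested. The share of genes that separated in chondrocyte-like or macrophage-like cells was not computed. As given above, the glial-like levels overlapped without the top cell of each library, and their change reversed sign with the looser cell filter. *Nrg1* stood at 5.62% of its *Hpse2* *Smoc2* level in glial-like cells, where *Dcn*, *Lum* and *Pdgfra* stood at 4.72% to 6.86%. In macrophage-like cells it stood at 6.18%, against 3.91% to 6.26%. The glial-like values included the *Tnmd*-led sub-cluster of 121 cells. In the chondrocyte-like cells *Nrg1* had 49, 88, 88 and 235 UMIs in WT replicates 1 and 2 and KO replicates 1 and 2, the cell with the most held 22, 21, 32 and 41 of them, and KO replicate 1 had 179 such cells against 391 to 1036 in the other libraries. The edgeR estimate of the chondrocyte-like change was 1.64 ± 0.36 (SE; adjusted p = 1). Over the 4 libraries *Nrg1* in these cells stood at 6.19% of its level in *Hpse2* *Smoc2* FAP-like cells (2.25% to 13.3% per library), below the 14.8% to 53.9% of *Dcn*, *Lum* and *Pdgfra*. *Dcn* in these cells was 328 and 231 CPM in WT and 286 and 237 CPM in KO, and the part of RNA from FAP-like cells in the result was not tested.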

How the results depend on the processing

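Calls between classes numbered 31 of 34 tests and 29 to 32 under the alternatives. No member was called for KO against WT with DESeq2, RLE factors, the stricter gene filter, the replicate block, Scrublet or the other clusterings. Without a gene filter 1 member was called, *Nrg1* in chondrocyte-like cells, and 3 pathway genes in macrophage-like cells. That setting called 57 of 22057 genes in chondrocyte-like and 87 of 20238 in macrophage-like cells, where the main fits called 0. Leaving out a library gave 2 to 3 members and 0 to 4 pathway genes, each with a lone library in 1 genotype assumed to vary like the others; *Nrg1* in chondrocyte-like cells was called each time, and *Nrg1* in myoblast-like cells (WT replicate 1 or KO replicate 2 left out), *Nrg1* and *Hbegf* in endothelial-like cells (KO replicate 2; KO replicate 1) and *Egfr* in mast-like cells (WT replicate 2) once or more. The cause was not tested. In each of these fits other genes of the same class were called too, so a call there does not set a member apart. The log2 fold change of *Nrg1* in chondrocyte-like cells ran from 1.06 (without KO replicate 1) to 2.31 (without KO replicate 2). With the replicate number as a block 1 pathway gene was called, in macrophage-like cells; same-numbered libraries correlated at 0.14 to 0.27 in their deviations over 3 classes, but only the number is shared. None of the members was called for a difference of the knockout effect between classes in any setting, and 6 to 7 of 9 members were called between FAP-like groups. Of 789 single values 742 kept direction and side. Values that changed sign were all uncalled: with the looser filter *Erbb2* in myogenic-like (0.25), *Erbb4* in FAP-like (0.00368), and *Nrg1* (0.66), *Egfr* (0.25) and *Erbb4* (0.14) in glial-like cells, and *Erbb4* of glial-like minus FAP-like (0.0805); centred by library *Egfr* (0.000783), *Erbb2* (0.0769) and *Erbb3* (-0.0261) in myogenic-like cells; at resolution 1 *Erbb4* in FAP-like cells (0.0498) and of glial-like minus FAP-like (0.0307); with Scrublet *Egfr* in glial-like cells (0.33). Without each library in turn the ranges were, in myogenic-like cells, -0.19 to 0.0586 (*Nrg1*), -0.24 to 0.68 (*Nrg2*), -0.36 to 0.18 (*Erbb2*) and -0.23 to 0.41 (*Erbb3*); in FAP-like cells -0.28 to 0.0353 (*Nrg1*), -0.31 to 0.23 (*Nrg2*), -0.64 to 0.12 (*Hbegf*), -0.89 to 0.24 (*Btc*), -0.17 to 0.0259 (*Egfr*), -0.13 to 0.21 (*Erbb2*), -0.18 to 0.47 (*Erbb3*) and -0.48 to 0.31 (*Erbb4*); in glial-like cells -0.25 to 0.17 (*Hbegf*), -0.12 to 0.0142 (*Egfr*) and -0.95 to 0.51 (*Erbb4*); and -0.38 to 0.25 for *Erbb4* of glial-like minus FAP-like. Depth limits *Nrg3*, *Btc* and all myotube-like values.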

Other observations

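A glial sub-cluster of 121 cells led by *Tnmd* carried receptors of both lineages, with *Erbb3* at 163 ± 28.1 CPM and *Egfr* at 115 ± 13.5 CPM (SD, n = 4), and also *Nrg1* from 28.2 to 183 CPM. Its median of 18496 UMIs per cell was above the 10767 of all glial-like cells. A cluster of 465 cells with markers of both myogenic and FAP-like cells, left unnamed, held *Nrg1* at 221 and 331 CPM in WT and 204 and 142 CPM in KO, and *Egfr* at 149 ± 17.6 CPM. Its median was 14134 UMIs per cell. Neither group was used in a comparison of classes on its own, and the first is part of the glial-like class.

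Among glial sub-clusters *Erbb2* was lowest in the one led by *Syt1*, at 23.9 ± 7.35 CPM, where *Erbb3* was at 338 ± 18.8 CPM. The sub-cluster led by *Gm47507* had 64 ± 19.6 CPM of *Erbb2* on 74 UMIs and 401 ± 49.5 CPM of *Erbb3*.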
